A study of Homo sapiens with 3 samples.

Results

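The acyl-CoA synthetase genes described here are the 3 short-chain genes ACSS1, ACSS2 and ACSS3, the 5 long-chain genes ACSL1, ACSL3, ACSL4, ACSL5 and ACSL6, and the 2 bubblegum genes ACSBG1 and ACSBG2. They were chosen by name, 10 of 19974 protein-coding genes on the autosomes and chromosome X, with earlier results of these data known. The data are peak lists of histone H2A acetylated at lysine 130, obtained by chromatin immunoprecipitation and sequencing in UMUC3, an established human bladder cancer cell line kept in EMEM with fetal bovine serum. The smoke library came from cells given 10% cigarette smoke media for 3 days, and the air library from air-exposed cells. An input library completes the series and was not analysed here. Whether it entered the making of the deposited lists was not checked. Each group is 1 library, so the differences below cannot be set against replicates and carry no p-value. Peak lists carry no expression, so the labelled cell line was not checked against its markers.

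Acyl-CoA synthetases join a fatty acid or acetate to coenzyme A at the cost of ATP, by way of an acyl-adenylate. Without that step a free fatty acid can be neither beta-oxidised, built into glycerolipids and phospholipids, nor elongated. The short-chain enzyme ACSS2 makes acetyl-CoA from acetate in the cytosol and nucleus, and acetyl-CoA is also the acetyl donor for histone acetylation.

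Over the 10 gene spans the smoke list held 5 peaks and the air list 9, all of them over 4 genes. ACSS3 had 1 smoke and 5 air peaks, ACSL1 1 and 3, ACSL6 2 and 1, and ACSBG1 1 and 0. ACSS1, ACSS2, ACSL3, ACSL4, ACSL5 and ACSBG2 had no listed peak over the span. Smoke peaks were thus present at 4 of the 10 genes and air peaks at 3, against 23.6% and 25.0% of all protein-coding genes. Both libraries had a peak at 3 of the 10 (14.4% of protein-coding genes), smoke alone at 1 (9.21%) and air alone at 0 (10.7%). Counts over the spans were part of how these genes were set out for description, so nothing is read from these shares.

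**Figure D1:**
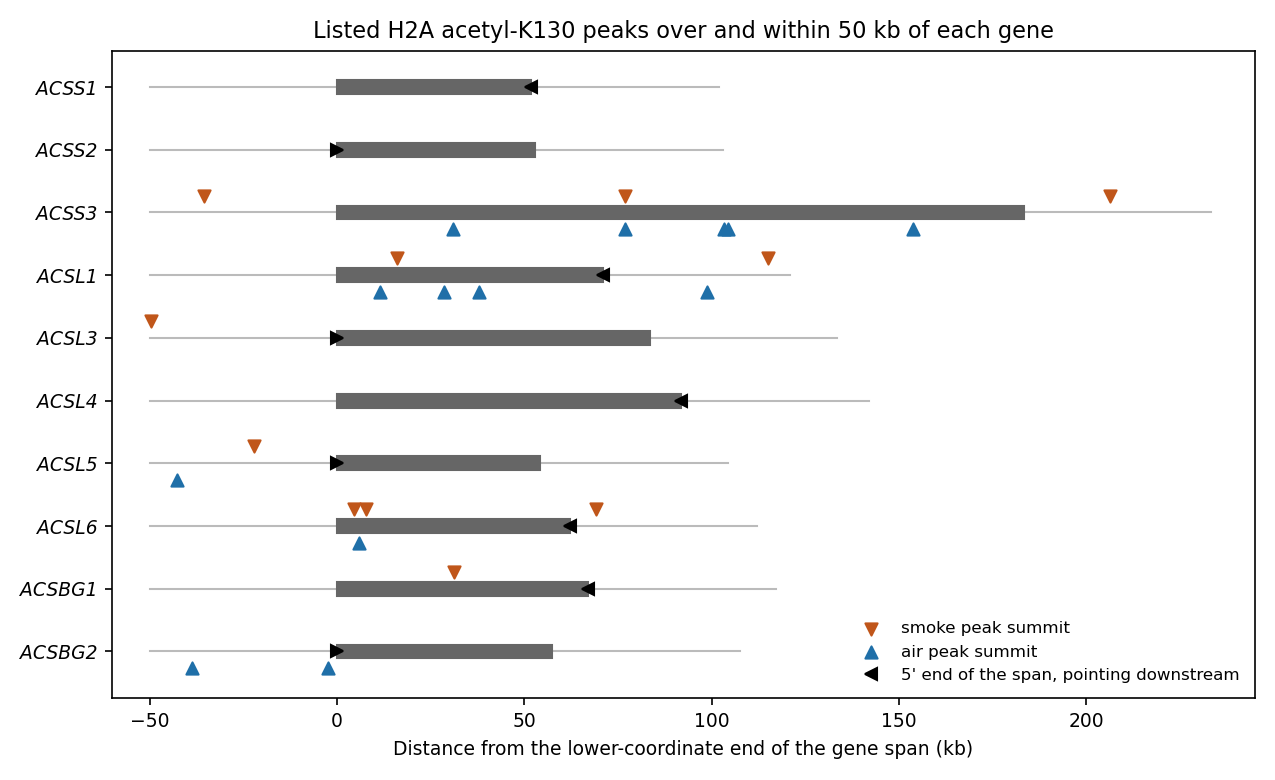
Position of every listed peak over or within 50 kb of the 10 genes, in kb from the lower-coordinate end of each gene span. Grey bars are gene spans, thin lines the 50 kb on either side, downward orange triangles smoke summits, upward blue triangles air summits, and black arrowheads the 5' end of the span for 9 genes. Peaks gather over ACSS3, ACSL1 and ACSL6, while ACSS1, ACSS2 and ACSL4 have none in the window.

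Within 50 kb on either side the counts came to 11 smoke and 13 air peaks. Smoke peaks then touched 6 genes and air peaks 5, with 4 genes in both. Of all protein-coding genes 53.4% had a smoke peak in such a window, 55.6% an air peak and 36.8% both. ACSS1, ACSS2 and ACSL4 remained without any. The smoke list contributed 35.7% of the peaks over the spans (exact binomial 95% interval 12.8 to 64.9) and 45.8% of those in the windows (25.6 to 67.2). Of all peaks over protein-coding spans 46.7% were smoke peaks. These intervals cover counting error only, take peaks of one gene as independent, and are wide. They rest on the counts by which the genes were set out, so nothing is read from them. Without ACSS3 the spans held 4 smoke and 4 air peaks, so the net surplus of air peaks came with that gene. ACSL1 also held more air than smoke peaks, 3 against 1. ACSL6 (1 air, 2 smoke) and ACSBG1 (0 air, 1 smoke) went the other way.

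The genes are long, and length bears on such counts. The span of ACSS3 is 183.3 kb, and the other 9 run from 51.9 kb (ACSS1) to 91.9 kb (ACSL4). Of protein-coding genes of 50 to 100 kb, 38.5% had a smoke peak over the span and 40.1% an air peak. Among the 9 members of that length 3 had a smoke peak and 2 an air peak. Per megabase of span the 10 genes carried 6.44 smoke peaks (exact Poisson 95% interval 2.09 to 15.04) and 11.6 air peaks (5.30 to 22.0). All protein-coding spans together carried 8.14 and 9.29. The intervals rest on the same counts and are wide, so nothing is read from this comparison either.

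**Figure D2:**
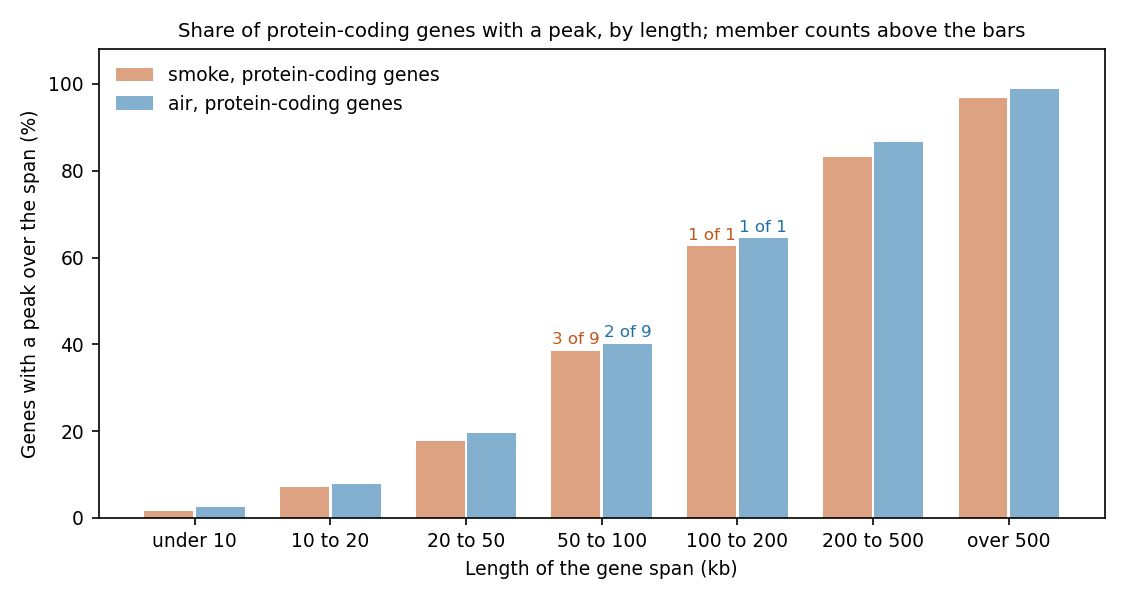
Share of protein-coding genes with at least 1 peak over the span (vertical axis, percent) by length of the span (horizontal axis, kb), for smoke (orange) and air (blue). The share climbs with length in both lists, and the numbers above the bars give how many of the acyl-CoA synthetase genes of that length had a peak, 3 of 9 and 2 of 9 between 50 and 100 kb.

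The peaks rest on few sequenced fragments. The deposited fold and −log10 p of each peak fix the number of fragments piled up at its summit and the local background, and this number could be recovered for 23975 of 23975 smoke and 27010 of 27010 air peaks. The median peak held 6 fragments in each list. Over the member genes smoke summits held 5 to 8 fragments and air summits 4 to 9. Background was most often 0.861 fragments for smoke and 0.724 for air. By the authors' own q-values 3 of the 5 smoke peaks and 4 of the 9 air peaks over these genes were at or below 0.05. Over the whole lists 44.4% of smoke and 60.4% of air peaks were, and nothing is read from so few member peaks.

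**Figure D3:**
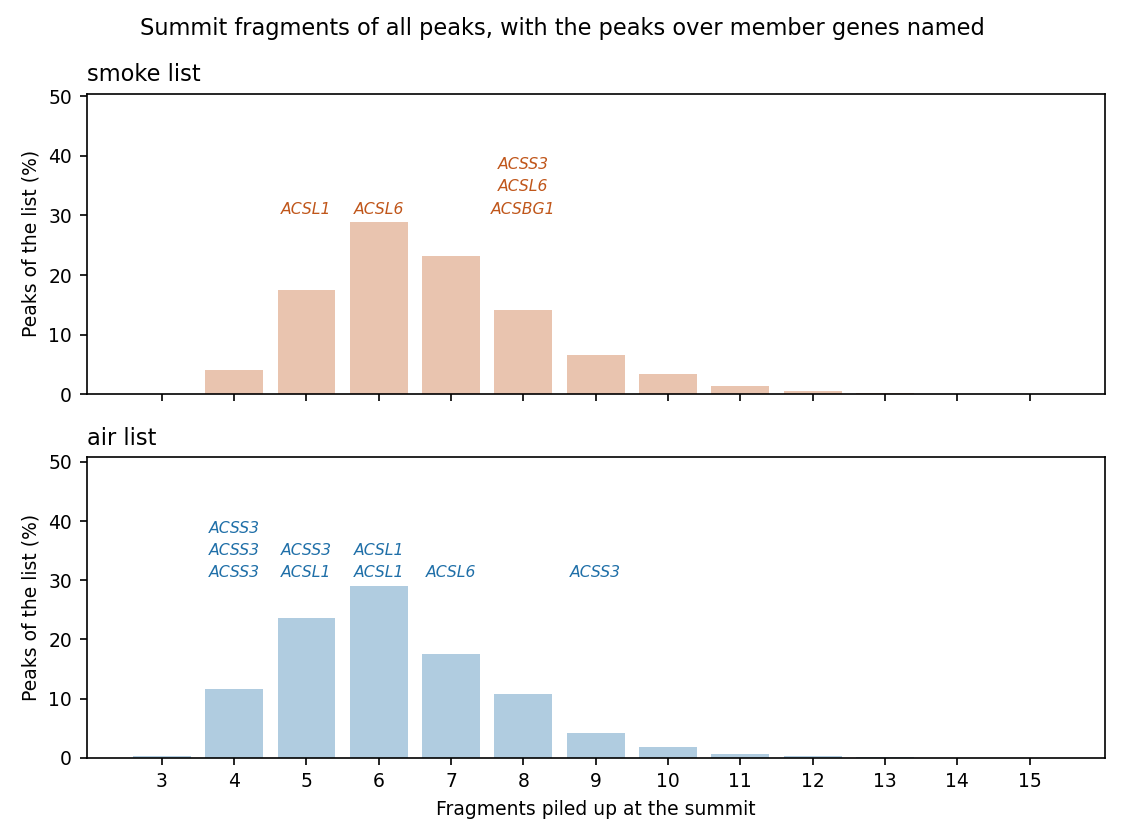
Share of all peaks in each list (vertical axis, percent) by the number of fragments at the summit (horizontal axis), smoke above and air below, with the names of the member genes written once per peak over the span. Member peaks lie between 4 and 9 fragments, and 3 of the 5 ACSS3 air peaks are at 4. The horizontal axis ends at 15 fragments, and the smoke list runs on to 119.

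Among the short-chain genes only ACSS3 carried peaks. It encodes a mitochondrial enzyme that activates short-chain acids such as propionate, and lies on chromosome 12 from 81077871 to 81261210 (hg38). Its smoke peak, from 81154650 to 81154880, had a deposited fold of 4.84 (−log10 q 2.11). It lay whole within an air peak from 81154487 to 81155014, whose fold was 5.80 (−log10 q 3.10). The overlap was 231 bp and the summits stood 9 bp apart, 76.9 kb inside the nearer end of the gene.

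This pair was the only overlap of smoke and air peaks at any of the 10 genes, windows included. Across the whole lists 1.58% of smoke and 1.41% of air peaks overlapped the other list. The smoke summit held 8 fragments (exact Poisson 95% interval 3.45 to 15.8) on a background of 0.861, and the air summit 9 (4.12 to 17.1) on 0.724. The 2 intervals overlap, but they cover counting error only and not the selection of called peaks. The numbers were not scaled for depth, which is unknown, so equal signal is not shown. In the smoke list 85.02% of peaks had a lower −log10 p than the smoke peak, and in the air list 97.2% had a lower one than the air peak. The lists differ in length and background, so these shares are not compared.

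The other 4 air peaks of ACSS3 were weak. The peaks at 81108649 to 81109058, 81182064 to 81182252 and 81231685 to 81231834, each had a fold of 2.90 with 4 fragments. Another at 81181099 to 81181268 had a fold of 3.48 with 5 fragments. None of these 4 reached a q of 0.05, with −log10 q between 0.681 and 1.11, and no smoke peak lay within 26.2 kb of any of them. The first also lies over ACSS3-AS1, a long noncoding RNA gene. An air count of 5 or more was reached by 2.86% of 1955 protein-coding genes of 100 to 200 kb. An excess of 4 or more air over smoke peaks was reached by 2.25%, and the reverse excess by 1.23%. These limits were set after the ACSS3 counts were seen. ACSS3, at 183.3 kb, lies near the long end of that class, and counts rise with length. The mean air count was 0.588 at 50 to 100 kb and 1.28 at 100 to 200 kb. Protein-coding spans on chromosome 12 carried 11.8 air peaks per megabase, against 9.29 on all chromosomes together. Genes closer to ACSS3 in length were not compared, so these shares do not show how unusual its counts are. In the window smoke added a peak 35.4 kb below the gene and another 23.04 kb above it, the latter over PPFIA2, which encodes a liprin.

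ACSS1, the mitochondrial acetyl-CoA synthetase, and ACSS2, its cytosolic and nuclear counterpart, both lie on chromosome 20 and had no listed peak within 50 kb. The nearest smoke peak to ACSS1 (25006237 to 25058139) was 54.1 kb away with a fold of 3.10, and the nearest air peak 209 kb away with a fold of 3.16. For ACSS2 (34874989 to 34927959) these distances were 90.1 kb and 91.9 kb. The peak-free stretch around ACSS1, both lists together, ran for 315 kb and also held APMAP, VSX1 and ENTPD6. Around ACSS2 it ran for 235 kb and held GGT7, GSS, which encodes glutathione synthetase, and MYH7B. Of all protein-coding genes 26.04% lay at least as far from any peak as ACSS1, and 16.3% at least as far as ACSS2.

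Of the long-chain genes ACSL1 and ACSL6 held peaks of both libraries, and none of those peaks overlapped. ACSL1, which feeds fatty acids into both oxidation and triglyceride synthesis, lies on chromosome 4 from 184755595 to 184826594 and is read from its higher-coordinate end. Its smoke peak at 184771690 to 184771839 had a fold of 3.22 with 5 fragments and a −log10 q of 0.882. Its air peaks had folds of 3.31 (184767125 to 184767349), 4.002 (184784108 to 184784345) and 3.90 (184793281 to 184793631), with 5, 6 and 6 fragments. The closest smoke and air peaks there were 4.34 kb apart. The summits of all 4 lay 11.6 to 37.9 kb from its 3' end and 12.1 to 38.4 kb from the nearest of 5 annotated start sites. A broad smoke peak of 614 bp, wider than 99.1% of its list, lay 43.5 kb outside the gene on the side of its start, over no annotated gene, with a fold of 4.30. An air peak over the noncoding RNA gene MIR3945HG lay 27.5 kb outside on the same side, with 4 fragments.

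ACSL6, a synthetase known from brain for its preference for docosahexaenoic acid, lies on chromosome 5 from 131949973 to 132012213 and is also read from the higher coordinate. All 3 of its peaks sat close together near its 3' end. The smoke peaks were at 131954252 to 131954654, with a fold of 3.66, and 131957740 to 131957889, with a fold of 3.76. The air peak between them, at 131955465 to 131955815, had a fold of 4.17. The gap was 810 bp to the first smoke peak and 1.92 kb to the second. Their summits lay 4.58, 7.82 and 5.78 kb from the 3' end of the gene, and 36.8 to 40.05 kb from the nearest annotated start. They held 8, 6 and 7 fragments in the same order. The 8 fragments of the first smoke peak stood on a background of 1.46 rather than the commonest 0.861, so its fold was the lower of the pair in smoke. A further smoke peak lay outside the gene, 6.81 kb upstream of its outermost start site, with a fold of 3.36 and 7 fragments; no air peak lay within 63.1 kb of it.

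**Figure D4:**
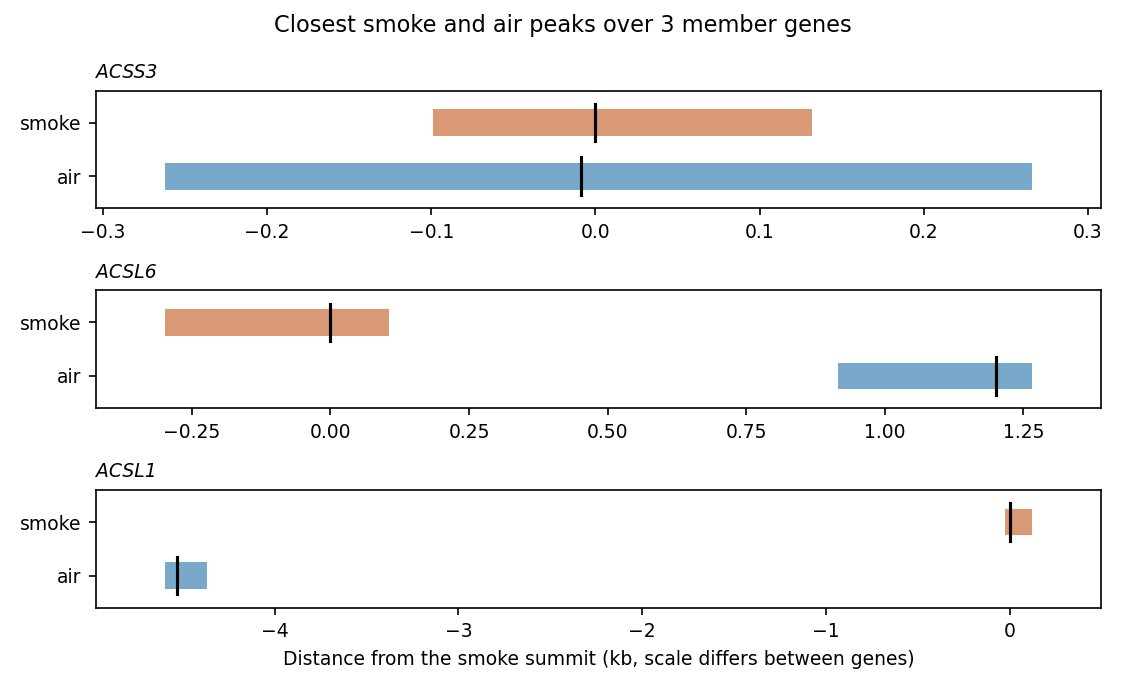
The closest smoke and air peaks over ACSS3, ACSL6 and ACSL1, as distance from the smoke summit in kb (horizontal axis, with its own scale for each gene). Bars are the listed peaks, orange for smoke and blue for air, and black lines their summits. The smoke peak lies whole within the air peak at ACSS3, 810 bp separate the peaks at ACSL6 and 4.34 kb at ACSL1.

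The remaining long-chain genes had no listed peak over the span. ACSL3, an enzyme of lipid droplet growth on chromosome 2 (222861036 to 222944639), had 1 smoke peak 49.4 kb away, just inside the window, with a fold of 3.22. Its nearest air peak was 84.6 kb away and outside the window. ACSL5, found on mitochondria and strongly expressed in gut epithelium, lies on chromosome 10 from 112374116 to 112428376. A smoke peak 22.0 kb below it (fold 3.22) and an air peak 42.5 kb below it (fold 3.37) both lay over the transcribed pseudogene GUCY2GP, 20.1 kb apart and with 5 fragments each.

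ACSL4 stood farthest of the 10 from any listed peak. It prefers arachidonic acid, supplies the polyunsaturated phospholipids that make membranes prone to ferroptosis, and lies on chromosome X from 109641335 to 109733257. Its nearest smoke peak was 581 kb away and its nearest air peak 594 kb away, with folds of 3.22 and 3.48 and 5 fragments each. The peak-free stretch around it ran for 1810 kb and held 11 protein-coding genes, among them NXT2, TMEM164 and AMMECR1. Only 0.816% of all protein-coding genes lay as far from any listed peak, and 5.54% of the 848 on chromosome X. Protein-coding spans on that chromosome carried 3.93 smoke peaks per megabase, against 4.17 to 10.6 on the other members' chromosomes. In air they carried 4.82, against 4.20 on chromosome 19, where ACSBG2 lies, and up to 11.8 on chromosome 12.

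The bubblegum genes each had peaks of 1 library in their windows, ACSBG1 of smoke and ACSBG2 of air. ACSBG1, a synthetase of brain and adrenal gland for long and very long chains, lies on chromosome 15 from 78167468 to 78234565. Its single smoke peak at 78198533 to 78198797 had a fold of 4.64, 8 fragments and a −log10 q of 2.11, so that 83.2% of smoke peaks had a lower −log10 p. The nearest air peak to the gene was 76.3 kb away. ACSBG2, known from testis, lies on chromosome 19 from 6135633 to 6193091 and had no peak over the span. An air peak at 6133008 to 6133343, with a fold of 3.98 and 7 fragments, lay 2.29 kb outside it, over the noncoding RNA gene LOC105372255. A weaker air peak 38.5 kb away (fold 3.41) lay over RFX2, which encodes a transcription factor of ciliated and germ cells. The nearest smoke peak was 85.5 kb away.

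No listed peak of either library overlapped an annotated start site of the 9 genes matched in the RefSeq promoter table (GRCh38.p14). The nearest were the air peak 2.41 kb upstream of ACSBG2 and the smoke peak 6.81 kb upstream of ACSL6, by their summits. The 250 bases upstream of these 2 start sites are shown with those of ACSL4, the gene farthest from any peak, each 5' to 3' on the strand of its gene and with every CG pair in capitals.

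ACSBG2, chr19:6135383-6135632, plus strand: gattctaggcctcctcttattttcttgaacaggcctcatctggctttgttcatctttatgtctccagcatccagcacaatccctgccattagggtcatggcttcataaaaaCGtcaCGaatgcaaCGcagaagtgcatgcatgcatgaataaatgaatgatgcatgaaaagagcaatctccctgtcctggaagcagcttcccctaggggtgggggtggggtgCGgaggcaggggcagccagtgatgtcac

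ACSL6, chr5:132012214-132012463, minus strand: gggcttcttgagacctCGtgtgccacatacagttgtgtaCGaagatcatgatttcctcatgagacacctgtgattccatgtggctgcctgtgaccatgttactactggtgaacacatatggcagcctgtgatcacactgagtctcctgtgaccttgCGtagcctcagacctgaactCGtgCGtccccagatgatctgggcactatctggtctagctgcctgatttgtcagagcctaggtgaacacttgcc

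ACSL4, chrX:109733258-109733507, minus strand: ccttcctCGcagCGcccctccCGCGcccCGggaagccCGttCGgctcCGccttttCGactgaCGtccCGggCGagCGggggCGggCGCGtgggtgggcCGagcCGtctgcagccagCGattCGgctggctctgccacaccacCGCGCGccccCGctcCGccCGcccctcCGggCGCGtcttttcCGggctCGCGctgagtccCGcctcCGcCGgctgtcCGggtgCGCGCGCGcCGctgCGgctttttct

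The upstream window of ACSBG2 held 4 CG pairs, that of ACSL6 5 and that of ACSL4 42. The pair CG reads the same on both strands, 93.9% of the 35116 windows of the table hold at least 1, and their median is 11. Fewer than 42 were present in 98.6% of windows. Start sites of one gene differed widely: the 7 of ACSL6 ran from 2 to 31 pairs and the 5 of ACSL1 from 4 to 41. The single start of ACSL3 had 35 and that of ACSBG1 3. The 2 starts of ACSS2, which had no peak in its window, had 3 and 18, and the 2 of ACSL5 had 2 and 3. No link between CG pairs and distance to a peak is therefore read from the windows shown. These counts describe the start sites and say nothing of acetylation there, since a site with no listed peak was not shown to lack it.

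Genes that make, split or use acyl-CoA beside the 10 were counted from 3 lists with 50 genes. Over all protein-coding genes 14.4% carried both, 9.21% only smoke and 10.7% only air peaks over the span. Of 17 related synthetase genes 3 carried smoke and air peaks over the span, 3 only smoke peaks and 1 only air peaks. The first 3 were medium-chain genes. ACSM5, with 1 smoke and 2 air peaks, had its closest smoke and air peaks 1.96 kb apart. ACSM6 and ACSM3, with 1 peak of each library, had theirs 10.2 kb and 27.8 kb apart. The products of most genes in the thioesterase list release the free acid again. Of its 13 genes 0 carried smoke and air peaks, 3 only smoke peaks and 2 only air peaks. Of 20 genes for acyl-CoA transferases and binding proteins 1 carried both, 3 only smoke and 3 only air peaks. The gene with both was ACBD6, an acyl-CoA binding protein gene of 233 kb with 2 smoke and 3 air peaks, the closest 80.7 kb apart. In all, 13 of the 50 genes had a smoke peak and 10 an air peak, near the 23.6% and 25.0% of all protein-coding genes, with 16 smoke and 14 air peaks over 2264 kb of spans, and none of the smoke and air peaks overlapped within them. Over the whole lists such overlap was also rare, at 1.58% of smoke and 1.41% of air peaks.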

How the data were processed

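H2A acetylated at lysine 130 was profiled by ChIP-seq in UMUC3 cells, with 1 smoke and 1 air library; groups follow the treatment labels, since the protocol text on smoke media is repeated on every sample. The aligner Bowtie2, the peak callers MACS and MACS2 and the builds hg38 and mm10 are named per the submitters' processing notes, without settings. The deposited lists have 10 columns and no header. Their whole-number score is about 10 times the −log10 p, their fold is the authors' enrichment ratio, and the authors' peak caller gave their −log10 p and −log10 q. Total read depth is unknown. Numbers in the peak names have gaps, so each list was filtered before deposit, by a rule that is not described. By their names both lists are a sample minus the same item. What that item is, and whether its subtraction was the filter, was not tested. Absent peaks, peak-free stretches and overlaps therefore describe the filtered lists and not the whole libraries. Whether the filter removed peaks at start sites, in those stretches or common to both libraries was not tested.

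Fragments at a summit (k) and background (b) were solved from the fold, (k + 1)/(b + 1), and from p, the Poisson chance of more than k fragments, within 0.001 on the −log10 scale, after the data were seen. Gene spans, start sites and upstream sequences came from RefSeq tables (GRCh38.p14); 10 of 10 genes matched the gene table and 9 of 10 the promoter table. A peak counted when it overlapped a span, or the span widened by 50 kb, by at least 1 bp. The members and lists were chosen with earlier results of these data known. Named were all 10 members, genes of the related lists with peaks in both libraries, and genes under window peaks; genes of peak-free stretches were named after their values were seen. Counts and the fragment solution were tested on simulated data. Analyses used Python 3.11.15 with SciPy 1.17.1. Alternatives covered thresholds, placement, window, overlap and list size.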

Additional observations from a re-analysis of the deposited data

How the results depend on the processing

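The limit of q at most 0.05 and the omission of ACSS3 were added once the data had been seen; all other alternatives were set with earlier results of these data known. Placing peaks by summit changed none of the 8 values, and equal list sizes left the smoke share at 35.7%. That share is not shown to be stable to list size. The 3 air peaks of ACSS3 with 4 fragments were tied in −log10 p with many other air peaks low in the list. If the longer list is cut by −log10 p, the order of ties can decide whether they stay. With −log10 q limited to 2 or more, the spans held 2 smoke peaks and 1 air peak, at 2 and 1 genes, the windows also 2 and 1, and the smoke share was 66.7%. At a fold of at least 5 the spans held 0 smoke peaks and 1 air peak, at 0 and 1 genes, the windows also 0 and 1, with 0 shared pairs and a smoke share of 0%. At a q of at most 0.05 the spans held 3 and 4 peaks and the windows 4 and 5. A window of 10 kb held 6 smoke and 10 air peaks, and one of 100 kb 19 and 21. The shared pair at ACSS3 remained when 50% of the shorter peak had to overlap, and counting neighbours within 1 kb gave 2 pairs, the second at ACSL6. Without ACSS3 the spans held 4 air peaks, the windows 8, and there were 0 shared pairs. Of the 47 alternative values 26 moved by more than 1.5 times or out of the interval of the share. With 4 to 9 fragments under each peak, a peak of this strength in one list and none in the other is not shown to be a difference in acetylation. No paired analysis was possible because each group has 1 library, and for the same reason no library could be left out.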
